A study of Mus musculus with 2 samples.

Results

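A module of 36 genes that make, sense, take up, export and store cholesterol was followed in mouse microglia, the resident macrophages of the brain. The members were chosen by gene symbol in 5 groups by role: 16 enzymes of synthesis, 5 genes of sterol sensing, 6 of uptake, 6 of the LXR receptors and efflux, and 3 of storage and movement. All 36 were found among the 31053 features counted, and none had a repeated symbol. They were examined in 3304 WT cells and 5007 cells of the library labelled IRF8KO.

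Both libraries were made by droplet single-cell RNA sequencing from female C57BL/6 mice aged 3 months. The WT library came from 3 pooled wild-type mice, and the library labelled IRF8KO from 3 pooled mice named as lacking IRF8, a transcription factor of the myeloid lineage. The genotype entry of that library reads WT, its title reads IRF8KO, and the allele is not given in the sources used here, so it is called the library labelled IRF8KO and its cells IRF8KO-labelled. Cells of both were freed without enzymes and sorted by flow cytometry. With 1 library and 1 pool per genotype, genotype, pool and library cannot be told apart. Differences therefore have no replicate check, and genotype could not be tested.

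Irf8 itself was read first. It had 14725 UMIs (unique molecular tags, each counting 1 captured transcript) in WT cells and 12698 in IRF8KO-labelled cells, or 794 (781 to 807) and 669 (657 to 681) CPM (counts scaled to 1000000 UMIs per library). These intervals, like all below, are exact 95% counting intervals, and they cover counting error only, since cells of 1 pool are not replicates. The transcript was therefore present in both libraries, and a 3′ droplet count would not show a deletion that leaves the transcript's end in place.

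The cells used held 18543061 UMIs in WT and 18980263 in the IRF8KO-labelled library, with medians of 3204.5 and 2933 UMIs per cell. From the latter, 98 cells with 2% or more of UMIs in 6 neutrophil genes were left out, and no WT cell reached that limit. The libraries shared 5 cell barcodes. Microglia markers took 3.34% of WT UMIs and 1.73% of those labelled IRF8KO, and 2 of 11 were higher in the latter. Border macrophage markers took 0.0265% and 0.338%, with 9 of 10 higher in IRF8KO-labelled cells. Ms4a7, Cd163, Lyve1, F13a1 and Clec12a were at 0 UMIs in WT. Some stayed scarce in IRF8KO-labelled cells, with Lyve1 at 2 UMIs and Cd163 and Cbr2 at 9.11 and 6.11 CPM. Folr2 went the other way, with 32 UMIs in WT and 4 in IRF8KO-labelled cells. The summed shares of 7 further classes (neutrophils, monocytes, lymphocytes, oligodendrocytes, astrocytes, endothelial cells and neurons) lay at or under 0.0217% in both libraries. The part of the macrophage marker difference in the results below was not tested.

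Cells build cholesterol from acetyl-CoA through the mevalonate pathway. When membrane sterol is low, SCAP carries the precursor of SREBP2 from the endoplasmic reticulum to be cut, and the freed factor switches on the genes of synthesis and uptake, while INSIG proteins hold it back. When sterols and their oxidised forms build up, the nuclear receptors LXR alpha and LXR beta switch on genes of export, and surplus cholesterol is esterified and kept in lipid droplets. In the brain, which is closed to blood lipoproteins, microglia take up lipid from myelin and debris and pass cholesterol on to particles that carry apolipoprotein E.

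Levels were compared by the log2 ratio of CPM, IRF8KO-labelled cells over WT. Among the 8859 genes that reached 10 CPM in either library the median ratio was −0.28, a 1.21-fold lower level. Each ratio is given below as its difference from that median, called the relative log2 ratio, and a single value in parentheses after a gene's levels is this ratio. A paired value gives WT first. A gene is called higher or lower where it lay 2-fold or more from the median. By this rule 667 of the 8859 genes, 7.53%, were higher in IRF8KO-labelled cells and 526, 5.94%, were lower. The middle 50% of all genes spanned −0.27 to 0.28. On this scale Irf8, whose raw level was lower in IRF8KO-labelled cells, stood at 0.03 (−0.002 to 0.066).

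Of the 36 members, 23 reached 10 CPM in a library. Of these 23, 2 were higher, Pltp and Plin2 (8.70%), none was lower and 21 lay within 2-fold. A share of 8.70% higher against 7.53% over all genes is close to the background, while none lower stands against 5.94%. Of the 23 members, 16 lay above the all-gene median and 7 below it. The counting interval lay wholly above the all-gene median in 12 of the 23 members and wholly below it in 4, against 35.2% and 34.0% of the 8859 genes. The median relative log2 ratio was 0.21 over the 23 members and 0.28 over all 36. For the latter, Vldlr, which had 0 UMIs, was set at 3 counts in each library. The 13 members under 10 CPM in both libraries include 9 of the 16 synthesis enzymes. Together the 36 genes held 2119 CPM in WT and 2032 CPM in IRF8KO-labelled cells.

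The enzymes of synthesis were close to the median of all genes. Of 16, 7 reached 10 CPM in a library, and none of these was 2-fold from the median. Their median relative log2 ratio was 0.21, and 0.26 over all 16. Summed, the 16 genes held 279 CPM (271 to 287) in WT and 260.4 CPM (253 to 268) in IRF8KO-labelled cells, a relative log2 ratio of sums of 0.18. On totals without mitochondrial and ribosomal protein genes the order of the sums turned, at 305.3 CPM in WT against 314.1 CPM.

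Hmgcs1, which makes the substrate for the step that commits carbon to the pathway, had 634 UMIs in WT and 540 in IRF8KO-labelled cells. Its level was 34.2 CPM (31.6 to 37.0) and 28.5 CPM (26.1 to 31.0), a relative log2 ratio of 0.01 (−0.15 to 0.18). The promoter is shown because it carries both kinds of element through which SREBP2 is known to act. It lies at chr13:119690101-119690350 on the plus strand of GRCm38.p6 (RefSeq), the 250 bases before the start, read 5′ to 3′. Capitals mark a sterol regulatory element core (TCACNCCAC) and 3 NF-Y boxes (CCAAT, here as ATTGG on the opposite strand). The core lies 137 bases before the start, and the boxes 237, 176 and 45 bases before it.

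Hmgcs1: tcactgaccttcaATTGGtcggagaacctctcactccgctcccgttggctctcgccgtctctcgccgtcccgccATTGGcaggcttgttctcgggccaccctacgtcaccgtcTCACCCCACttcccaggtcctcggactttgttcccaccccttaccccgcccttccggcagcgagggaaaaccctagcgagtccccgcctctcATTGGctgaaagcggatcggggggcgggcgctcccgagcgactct

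Across the synthesis members with a RefSeq promoter entry, 12 of 13 held an NF-Y box in those 250 bases, and so did 12 of the 17 other members with an entry. A box on either strand was present in 37.5% of all 27025 genes with an entry. The sterol regulatory element core was found, on either strand, in Hmgcs1 and Stard3 alone of the 30 members with an entry, and in 1.22% of all genes. The composite element bound by IRF8 with ETS factors (GGAA, any 2 bases, GAAA, on either strand) was in none of the 30 windows and in 2.68% of all genes. An interferon-response type repeat (GAAA, any 2 bases, GAAA) was in that of Ebp and in 3.46% of all genes. These matches describe the letters in the windows, not binding.

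Acat2, which joins acetyl-CoA units, had 109 and 127 UMIs, 5.88 CPM in WT and 6.69 CPM in IRF8KO-labelled cells. Mvk and Mvd, kinase and decarboxylase of the mevalonate branch, had 7.60 and 4.75 CPM in WT against 7.74 and 4.43. These 3 early enzymes had relative log2 ratios of 0.47, 0.31 and 0.18. Idi1, the isomerase that makes the reactive isoprenoid unit, was counted 111 and 175 times, at 5.99 CPM (4.92 to 7.21) and 9.22 CPM (7.90 to 10.7). Its relative log2 ratio was 0.90 (0.55 to 1.26), below the 10 CPM set for a call. Fdps, the farnesyl diphosphate synthase, had 180 and 165 UMIs (0.12), and Fdft1, which joins farnesyl units into squalene, had 119 and 89 (−0.17). Exons of Fdft1 overlap on the opposite strand with Ctsb, a cathepsin at 1674 CPM in WT, and whether the counting used strand is not given in the sources used here.

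Sqle, the squalene epoxidase and a control point of the pathway, was nearly silent in WT. It had 18 UMIs there and 45 in IRF8KO-labelled cells, 0.971 CPM (0.575 to 1.53) and 2.37 CPM (1.73 to 3.17). The relative log2 ratio was 1.57 (0.75 to 2.44), the highest of the 16 enzymes, with the widest interval. Lss, which closes the squalene ring into lanosterol, had 93 and 86 UMIs (0.13).

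Cyp51, the lanosterol demethylase, had 231 UMIs in WT and 297 in IRF8KO-labelled cells. The levels were 12.5 CPM (10.9 to 14.2) and 15.6 CPM (13.9 to 17.5), a relative log2 ratio of 0.61 (0.36 to 0.86). Cyp51 shares exon sequence on the opposite strand with Akap9, which had 192 CPM in WT and 128 CPM in IRF8KO-labelled cells. Msmo1, the sterol methyl oxidase that acts next, had 638 and 699 UMIs, 34.4 CPM (31.8 to 37.2) and 36.8 CPM (34.1 to 39.7), with a relative value of 0.38 (0.22 to 0.53). Nsdhl, the dehydrogenase of the same demethylation, had 189 and 165 UMIs (0.05). Hsd17b7, its reductase, had 46 and 75 UMIs, 2.48 and 3.95 CPM (0.95, interval 0.40 to 1.51).

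Ebp, the sterol isomerase, held the most UMIs of the enzymes in both libraries. It had 2007 UMIs in WT and 1668 in IRF8KO-labelled cells, 108 CPM (104 to 113) and 87.9 CPM (83.7 to 92.2), and a relative log2 ratio of −0.02 (−0.12 to 0.07). It made up 38.8% and 33.8% of all UMIs of the 16 enzymes, so the summed level follows Ebp more than any other enzyme. Sc5d, the desaturase, had 351 and 369 UMIs, 18.9 and 19.4 CPM (0.32). Dhcr7, the reductase of the last step, had 216 and 211 UMIs, 11.6 and 11.1 CPM (0.21). Of the 16 enzymes, 14 had a relative log2 ratio above 0 and 2, Fdft1 and Ebp, below. Of the 7 at 10 CPM or more, 6 lay above 0. By definition the 8859 genes divide evenly about 0 (4429 below), but the 9 enzymes under 10 CPM are not among them. With no minimum level the all-gene median log2 ratio was −0.22 in place of −0.28.

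The genes that sense sterol lay on both sides of the all-gene median. Srebf2, which encodes the factor that drives the synthesis enzymes, had 388 UMIs in WT and 588 in IRF8KO-labelled cells. Its level was 20.9 CPM (18.9 to 23.1) against 31.0 CPM (28.5 to 33.6), a relative log2 ratio of 0.85 (0.66 to 1.03), short of the 2-fold line. Srebf1, whose product acts mainly on fatty acid synthesis and which is also an LXR target, had 335 and 387 UMIs, 18.1 and 20.4 CPM (0.45). Its exons overlap on the opposite strand with Rai1, at 43.7 CPM in WT.

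Scap, the escort protein of the SREBP precursors, lay on the other side of the median. It had 561 UMIs in WT and 310 in IRF8KO-labelled cells, 30.3 CPM (27.8 to 32.9) and 16.3 CPM (14.6 to 18.3). Its relative log2 ratio was −0.61 (−0.81 to −0.41). Insig2, a protein that holds SCAP in place when sterol is plentiful, had 1277 and 753 UMIs, 68.9 CPM (65.1 to 72.8) and 39.7 CPM (36.9 to 42.6), with a relative value of −0.52 (−0.65 to −0.39). Insig1, its sterol-induced relative, had 164 and 166 UMIs, 8.84 and 8.75 CPM (0.26). None of the 5 was 2-fold from the median, and the intervals of 2 lay above it and of 2 below.

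The group median of the sensing genes depended on which of them were counted. Over the 4 that reached 10 CPM it was −0.03, and over all 5 it was 0.26. It was also 0.26 where scaling brought Insig1 past 10 CPM, as when mitochondrial and ribosomal protein genes were left out of the totals.

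Uptake genes held the most UMIs of the 5 groups, and none that reached 10 CPM was 2-fold from the median. The 6 summed to 875 CPM in WT and 765 CPM in IRF8KO-labelled cells, with a median relative log2 ratio of 0.08 over 4 members, 2 above the all-gene median and 2 below. Lrp1, an endocytic receptor for apolipoprotein E particles and myelin debris, had 7034 and 6769 UMIs. Its level was 379 CPM (371 to 388) and 357 CPM (348 to 365), a relative value of 0.19 (0.14 to 0.24). Mylip, the LXR-induced ubiquitin ligase that sends lipoprotein receptors to degradation, had 8329 and 6902 UMIs, 449 CPM (440 to 459) and 364 CPM (355 to 372). Its relative value was −0.03 (−0.07 to 0.02), and it held 51.3% and 47.5% of the group's UMIs.

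Scarb1, a receptor for high-density lipoprotein, had 483 and 377 UMIs, 26.0 and 19.9 CPM (−0.11, interval −0.31 to 0.09). Vldlr, a receptor of the same family as Lrp1, had 0 UMIs in both libraries, where the floor of 3 counts of the total is 0.162 CPM in WT and 0.158 CPM in IRF8KO-labelled cells. Cd36, a scavenger receptor for oxidised lipoprotein, had 1 UMI in WT and 11 in IRF8KO-labelled cells, 0.0539 and 0.580 CPM, and its relative log2 interval ran from 0.92 to 9.13. The single WT count makes that ratio imprecise. Lpl, the lipase that frees fatty acids from lipoprotein triglyceride, had 384 and 462 UMIs, 20.7 CPM (18.7 to 22.9) and 24.3 CPM (22.2 to 26.7), with a relative value of 0.51 (0.31 to 0.71).

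Among the LXR receptors and efflux genes the difference varied by member, with Pltp far from the rest. The 5 members at 10 CPM or more had a median relative log2 ratio of 0.31, with 1 higher and none lower. The 6 summed to 507 CPM in WT and 551 CPM in IRF8KO-labelled cells. Nr1h2, which encodes LXR beta, had 963 and 864 UMIs, 51.9 and 45.5 CPM (0.09). Nr1h3, which encodes LXR alpha, was scarce in both, with 17 and 21 UMIs, 0.917 and 1.11 CPM (0.55, interval −0.44 to 1.56).

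Abca1, the transporter that loads cholesterol onto apolipoproteins, was the most abundant transporter of the module. It had 6185 UMIs in WT and 6802 in IRF8KO-labelled cells, 334 CPM (325 to 342) and 358 CPM (350 to 367), a relative log2 ratio of 0.38 (0.33 to 0.43). Abcg1, which exports cholesterol to lipidated particles, had 1990 and 2082 UMIs, 107 CPM (103 to 112) and 109.7 CPM (105 to 115), a relative value of 0.31 (0.22 to 0.40). Both had raw levels within 1.21-fold of WT. Abca7, a related transporter of phospholipid, was on the other side, with 232 and 106 UMIs, 12.5 CPM (11.0 to 14.2) and 5.58 CPM (4.57 to 6.75). Its relative log2 ratio was −0.88 (−1.23 to −0.55), just inside the 2-fold line, and the raw level was 2.24-fold lower. With each cell given equal weight it was −1.04, past that line.

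Pltp, the phospholipid transfer protein that remodels lipoprotein particles and an LXR target, had the largest difference of the module. WT cells held 10 Pltp UMIs and IRF8KO-labelled cells held 586, or 0.539 CPM (0.259 to 0.992) against 30.9 CPM (28.4 to 33.5). The level was 57.3-fold higher, a relative log2 ratio of 6.12 (5.23 to 7.19), above 99.2% of the 8859 genes. The 2 intervals of the level are far apart. After each cell was thinned to 2000 UMIs, 0.0662% of WT cells (0.00802 to 0.239, exact binomial interval) and 5.30% of IRF8KO-labelled cells (4.66 to 6.00) held a Pltp UMI. Unthinned, these shares were 0.303% and 9.31%. The left-out cells rich in neutrophil genes, taken as a guide to stray RNA in that library, gave 1.03% thinned and 2.04% unthinned at a median of 7057.5 UMIs per cell. No such guide was measured for WT. The left-out cells held 3.56 CPM (0.734 to 10.401) of Pltp, an interval that overlaps that of WT (0.259 to 0.992 CPM). That interval lies below the 30.9 CPM of the cells used.

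Pltp lies at chr2:164839518-164857711 on the minus strand (GRCm38, GENCODE M21), and its exons overlap on the opposite strand with Ctsa, a lysosomal carboxypeptidase. Ctsa had 10168 UMIs in WT and 8645 in IRF8KO-labelled cells, 548 and 455 CPM, a relative log2 ratio of 0.01. The promoters of Pltp and Plin2 are shown because they belong to the only 2 members that were higher. That of Pltp spans chr2:164857709-164857958 on the minus strand (RefSeq, GRCm38.p6), and that of Plin2 spans chr4:86670060-86670309 on the minus strand. Capitals mark an NF-Y box (CCAAT or ATTGG) in each, and in Plin2 also a nuclear receptor half-site (AGGTCA, here as TGACCT). The half-site was also in the windows of Hmgcs1 (left in lower case above), Dhcr7, Insig1 and Cd36, and in 15.8% of all genes. It thus does not set Plin2 apart from members that were not higher.

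Pltp: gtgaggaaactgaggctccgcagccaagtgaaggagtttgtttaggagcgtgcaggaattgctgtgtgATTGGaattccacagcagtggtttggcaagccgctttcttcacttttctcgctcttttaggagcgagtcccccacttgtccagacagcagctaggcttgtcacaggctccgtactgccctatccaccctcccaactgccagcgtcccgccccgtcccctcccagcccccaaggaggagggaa

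Plin2: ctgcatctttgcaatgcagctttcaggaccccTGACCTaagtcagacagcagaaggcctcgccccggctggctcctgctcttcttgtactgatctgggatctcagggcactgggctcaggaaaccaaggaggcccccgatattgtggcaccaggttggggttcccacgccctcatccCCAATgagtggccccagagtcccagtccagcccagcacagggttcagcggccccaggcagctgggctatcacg

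The box lies 182 bases before the start in Pltp and 73 in Plin2, and the half-site 218 bases before the start in Plin2. Neither window held the sterol regulatory element core of Hmgcs1 or the ETS and IRF composite.

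Of storage and movement, Plin2 was higher while its neighbours in the group were not. Plin2 encodes perilipin 2, the coat protein of lipid droplets, at chr4:86648386-86670060 on the minus strand. It had 543 UMIs in WT and 1867 in IRF8KO-labelled cells, 29.3 CPM (26.9 to 31.9) and 98.4 CPM (93.95 to 103). The level was 3.36-fold higher, a relative log2 ratio of 2.03 (1.89 to 2.17). At 2000 UMIs per cell, 5.30% of WT cells and 17.5% of IRF8KO-labelled cells held a Plin2 UMI, with exact binomial intervals of 4.53 to 6.16 and 16.4 to 18.6. The left-out cells rich in neutrophil genes of the same library gave 10.3% (5.06 to 18.1).

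Soat1, which esterifies cholesterol for storage, had 2647 and 2960 UMIs, 143 and 156 CPM (0.41, interval 0.33 to 0.48). Stard3, which tethers late endosomes to the endoplasmic reticulum and moves cholesterol between them, had 2573 and 1607 UMIs, 139 and 84.7 CPM. Its relative log2 ratio was −0.43 (−0.52 to −0.34). The 3 genes summed to 311 CPM in WT and 339 CPM in IRF8KO-labelled cells.

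**Figure D1:**
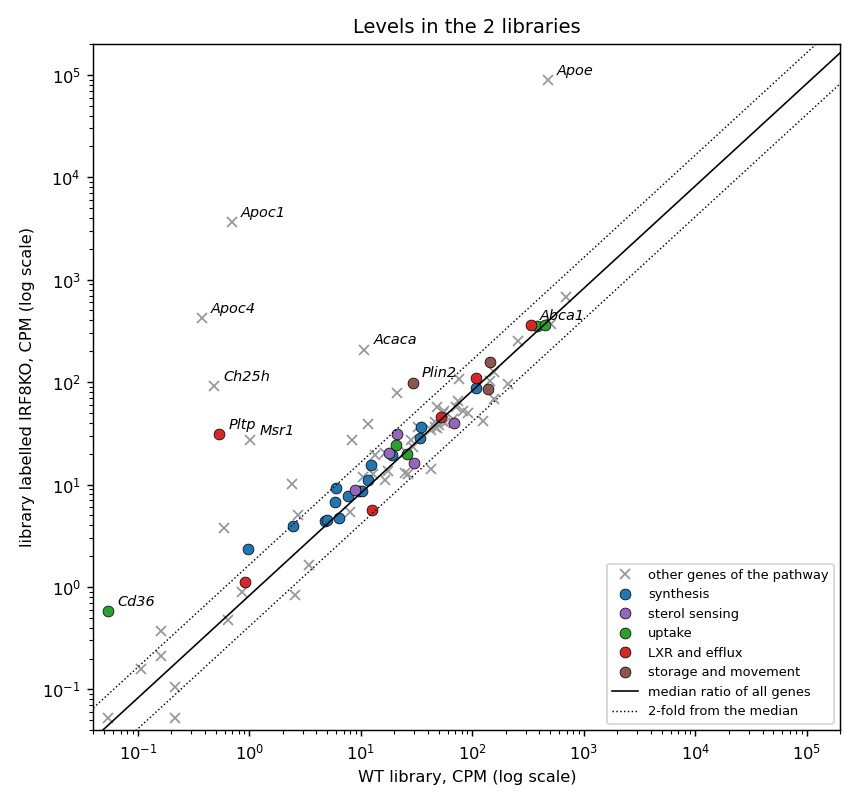
CPM of each member in WT (x axis, log scale) and in IRF8KO-labelled cells (y axis, log scale), coloured by role, with other genes of the pathway as grey crosses; genes at 0 UMIs in a library are not drawn, the solid line is the median ratio of all genes and dotted lines are 2-fold from it. Pltp, at 0.539 CPM in WT against 30.9 CPM, stands beside a few apolipoprotein and oxysterol genes far above the line, while Abca1 lies near it at 334 and 358 CPM.

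The known LXR targets among the members did not share a single size of difference. Of Abca1, Abcg1, Mylip, Srebf1, Pltp, Lpl and Nr1h3, 6 reached 10 CPM, 1 of these (Pltp) was higher, and the median relative log2 ratio was 0.42. The 7 summed to 930 CPM in WT and 908 CPM in IRF8KO-labelled cells. The 17 members known as SREBP targets had a median of 0.21 over the 7 that reached 10 CPM, with none higher or lower.

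Among 69 other genes of the same pathways, 47 reached 10 CPM in a library, of which 10 (21.3%) were higher and 2 (4.26%) lower, beside 7.53% and 5.94% of all genes. Their median relative log2 ratio was 0.09. None of 6 further synthesis and isoprenoid genes and none of 11 genes of SREBP cleavage and feedback was 2-fold from the median. The higher genes were carriers and export genes (3 of 7), uptake and endolysosome genes (3 of 10), storage and oxysterol genes (2 of 8) and fatty acid targets of SREBP1 and LXR (2 of 5). Some of these lists hold genes that earlier results of these data had shown to differ.

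The 6 with the widest differences were Apoc1, Apoc4, Ch25h, Apoe, Msr1 and Acaca. Apoe, the main apolipoprotein of the brain and an acceptor of cholesterol from Abca1, had 478 CPM in WT and 88320 CPM in IRF8KO-labelled cells, a relative log2 ratio of 7.81. Apoc1 and Apoc4, its neighbours in a gene cluster, had 13 and 7 UMIs in WT and 69083 and 7973 in the other library. Ch25h, which makes an oxysterol that activates LXR and holds back SREBP processing, had 9 UMIs in WT and 1720 in IRF8KO-labelled cells, 0.485 and 90.6 CPM (7.82, interval 6.90 to 8.96). Msr1, a scavenger receptor for modified lipoprotein, had 19 and 514 UMIs, 1.02 and 27.1 CPM (relative log2 interval 4.35 to 5.75).

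Acaca, the acetyl-CoA carboxylase that commits carbon to fatty acid synthesis, had 199 UMIs in WT and 3920 in IRF8KO-labelled cells. Its level was 10.7 CPM and 207 CPM, a relative log2 ratio of 4.55 (4.34 to 4.76). The next 4 genes were chosen after their values were seen. Nceh1, which hydrolyses stored cholesterol ester, had 21.1 and 78.0 CPM (2.16), and Gramd1b, which carries sterol from the plasma membrane, had 216 and 739 UMIs (2.02). Sort1, a sorting receptor, had 124 and 42.1 CPM (−1.28), and Fads1, a fatty acid desaturase, had 42.9 and 14.0 CPM (−1.34), and these were the 2 lower genes.

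The differences of Pltp, Plin2 and Srebf2 were present at all depths of the cell. Over quartiles of UMIs per cell, Pltp ran from 27.6 to 33.9 CPM in IRF8KO-labelled cells and from 0 to 0.944 CPM in WT. Plin2 ran from 94.8 to 99.4 CPM against 26.6 to 32.6 CPM, and Srebf2 from 28.1 to 36.1 CPM against 18.1 to 21.8 CPM. Of the 23 members at 10 CPM or more, these 3 had every IRF8KO-labelled quartile above every WT quartile, as did 12.2% of the 8859 genes. These quartile levels are CPM not set against the all-gene median, relative to which Ebp and Nr1h2 stood at −0.02 and 0.09. Every quartile lay below in 6 members, Ebp, Nr1h2, Stard3, Insig2, Scap and Abca7, and in 41.0% of all genes. Insig2 (36.05 to 42.8 CPM against 64.5 to 72.7 in WT), Scap (13.7 to 20.7 against 24.9 to 33.1) and Abca7 (2.38 to 6.91 against 11.4 to 13.4) had the lowest ratios of these. Abca1 (330 to 372 against 291 to 351) and the summed synthesis enzymes (248 to 307 against 263 to 286) overlapped.

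**Figure D2:**
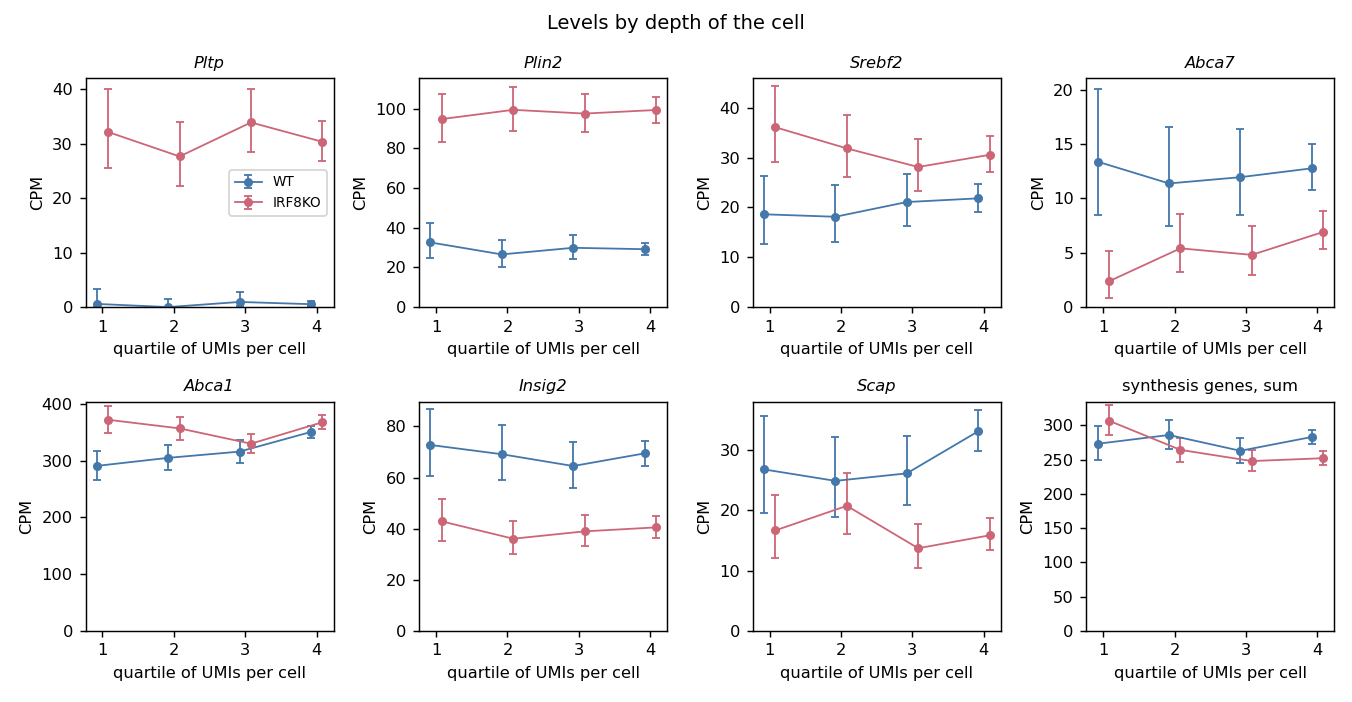
CPM of 7 members and of the 16 synthesis enzymes together (y axes) in each quartile of UMIs per cell, 1 the shallowest (x axis), for WT in blue and the library labelled IRF8KO in red; bars are 95% counting intervals. Pltp, Plin2 and Srebf2 are separated upward and Abca7, Insig2 and Scap downward at every quartile, and the synthesis sum overlaps at 248 to 307 CPM against 263 to 286 CPM.

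Cell by cell the module was small and even. After thinning to 2000 UMIs, the 36 genes together gave a mean of 3.98 UMIs per WT cell and 3.99 per IRF8KO-labelled cell, with a median of 4 in both. No UMI of any member was found in 2.19% and 2.79% of thinned cells. The left-out cells rich in neutrophil genes had a mean of 1.12. The variance of the summed synthesis UMIs over cells was 1.03 times the sum of the enzymes' own variances in WT and 1.13 times in IRF8KO-labelled cells, where 1 is what genes without shared variation give.

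Abca1 was the efflux gene seen in the most cells, with a UMI in 44.2% of WT cells and 47.2% of IRF8KO-labelled cells at 2000 UMIs (61.2% and 60.5% unthinned). Lrp1 was seen in 49.0% and 48.8% (68.2% and 62.9% unthinned). The left-out cells rich in neutrophil genes gave 3.09% for both genes. Abca7 went the other way, with 2.25% of WT cells, 1.11% of IRF8KO-labelled cells and 5.15% of the left-out cells, so its shares lay below those of the left-out cells.

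Within IRF8KO-labelled cells, levels were compared between cells of unlike state, with cells as the unit of description only. The shares of UMIs in Clec12a, Mrc1 and Igf1 and in Lgals1, Cst7 and Cd72 were each scaled to their mean over cells, and each cell was put on the side with the larger value. On the side of Clec12a, 2629 cells, Abca1 stood at 398 CPM (386 to 411), and on that of Lgals1, 1862 cells, it stood at 314 CPM (302 to 327). Lrp1 had 382 against 330.0 CPM, and Lpl had the opposite order, 18.0 against 33.1 CPM. Pltp was also lower on the side of Clec12a, at 28.5 CPM (25.3 to 32.0) against 34.9 CPM (30.9 to 39.4), with intervals that overlap. The sides were nearer to each other for Plin2 (95.6 and 104 CPM) and the synthesis sum (260 and 263 CPM). These sides are ranges of a score and not types, with 413 cells near the cut and 516 on neither side.

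The share of a cell's UMIs taken by Apoe also went with some members. From the lowest to the highest quartile of that share in IRF8KO-labelled cells, the synthesis sum was 302, 266, 241 and 238 CPM. Because Apoe itself takes up the total, the same sum was also set against UMIs without Apoe, giving 318, 288, 267 and 273 CPM on that total. Cyp51 had 23.1 CPM (18.7 to 28.3) in the lowest quartile and 12.1 CPM in the highest, and Msmo1 had 47.2 and 31.0 CPM. Lpl, the member with the widest ratio between quartiles among those at 10 CPM or more, had 42.1, 19.2, 25.7 and 12.6 CPM (44.3 and 14.4 CPM at the ends on UMIs without Apoe). Pltp ran the other way, at 25.3, 27.5, 34.0 and 36.1 CPM, and Abca1 kept between 348 and 369 CPM.

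Lpl was the member with the most uneven counts over cells for its mean level. At 2000 UMIs its variance over cells was 1.94 times its mean in WT and 2.57 times in IRF8KO-labelled cells, where counting alone gives 1, and no other member exceeded 1.26. The 50 cells with the most Lpl UMIs held 50% and 52.2% of all Lpl UMIs, a share that scarcer members with few UMIs in all, such as Sqle, exceeded. The split of cells at 3 Lpl UMIs was chosen after this was seen.

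With 3 or more Lpl UMIs there were 27 WT cells and 32 IRF8KO-labelled cells, holding 38.0% and 44.4% of the Lpl UMIs. In the WT cells the synthesis sum was 279.6 CPM (236 to 329), against 278.8 CPM in all other WT cells. In the IRF8KO-labelled cells it was 487.5 CPM (396 to 594) against 257.9 CPM (251 to 265). These 98 synthesis UMIs came from 26 of the 32 cells, and no cell gave more than 12. Cyp51 had 94.5 CPM (56.9 to 148) in them against 14.8 CPM in the rest, from 19 UMIs in 10 cells, while in WT it had 3.86 CPM (0.467 to 13.9) against 12.7 CPM. Ebp, at 84.6 against 87.9 CPM, did not share the difference, nor did Dhcr7 (4.97 against 11.2 CPM) and Lss (0 against 4.58 CPM). The other enzymes were higher, but Mvd, Mvk, Nsdhl and Hsd17b7 only slightly, on 1 or 2 UMIs each. Of the 11 Cd36 UMIs of IRF8KO-labelled cells, 5 lay in these 32 cells. The cells were deeper than most, at medians of 7990 UMIs in WT and 4495.5 in IRF8KO-labelled cells, and a cell with 3 UMIs of any gene tends to be deep; the part of depth was not tested. The cut also falls where counts are dense, with 52 WT cells and 58 IRF8KO-labelled cells at 2 or 3 Lpl UMIs.

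**Figure D3:**
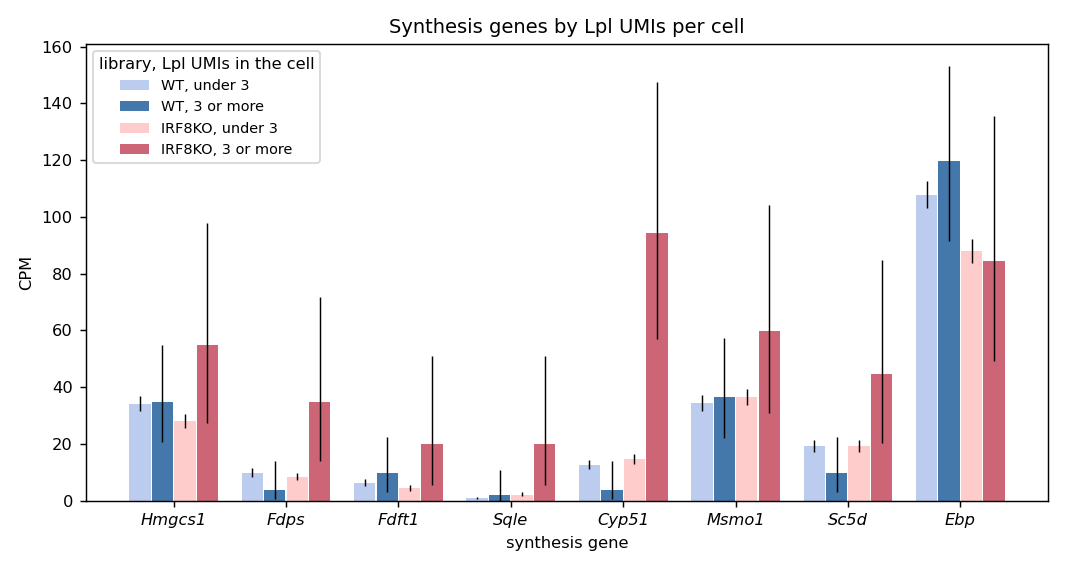
CPM of 8 synthesis enzymes (y axis, from 0) in cells with under 3 and with 3 or more Lpl UMIs, for WT (light and dark blue) and the library labelled IRF8KO (light and dark red); bars are levels and lines are 95% counting intervals over 27 WT cells and 32 IRF8KO-labelled cells in the dark bars. Cyp51 reaches 94.5 CPM in the dark red bar against 14.8 CPM in the light red one, and Ebp stays at 84.6 against 87.9 CPM. Dhcr7 and Lss, which were also not raised in those cells, are not drawn.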

How the data were processed

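Droplet single-cell RNA sequencing counts were analysed for 2 libraries, grouped by their titles. The deposited values are raw UMI counts for each gene in each barcode, written by Cell Ranger per the file headers; the submitters' processing notes name bcl2fastq, Cell Ranger 3.1, Scanpy and mm10. For gene annotation, strand use and cell calling the sources used here give nothing. The labels' protocol also names a full-length kit, but the values have the droplet form.

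Cells with at least 1000 UMIs, 500 genes and at most 10% mitochondrial UMIs were kept (3304 of 3504 WT, 5105 of 5303 labelled IRF8KO), and those with 2% or more of UMIs in 6 neutrophil genes were left out. No doublet caller was run, and an alternative left out the deepest cells. UMIs were summed per library and divided by the total (CPM). Ratios carry exact conditional binomial intervals and levels exact Poisson intervals, at 95%, for counting error only. Precision follows the UMI count printed beside each level. No clustering and no p-value was made. Cells were thinned to 2000 UMIs for shares of cells, leaving out shallower cells (3019 WT and 4509 labelled IRF8KO were used).

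All members are described, with full values for those 2-fold or more from the median, and of other pathway genes the 6 widest relative ratios at 10 CPM or more. Members and lists were chosen with earlier results of these data known. Promoters came from RefSeq GRCm38.p6 (30 of 36 members matched by symbol) and positions from GENCODE M21. Python 3.11.15, numpy 2.4.6, scipy 1.17.1, pandas 2.3.3, R 4.3.3 and edgeR 4.0.16 (TMM factors only) were used, and the script was tested on simulated data. Alternatives covered scaling, cell filters, minimum level and thinning. Leaving out shared barcodes, totals without Apoe, and the Lpl and Apoe splits of cells were added after seeing the data.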

Additional observations from a re-analysis of the deposited data

Results flagged for a closer look

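Abca7 was counted in cells that the comparisons leave out. In the 98 cells labelled IRF8KO with 2% or more of UMIs in neutrophil genes, it had 22 UMIs, 26.1 CPM (16.4 to 39.5). That is above the WT control at 12.5 CPM and above the 5.58 CPM of the cells labelled IRF8KO that were used.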

How the results depend on the processing

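A set of 12 alternatives were run for each member and group. Of 420 relative log2 ratios of the 35 members with a UMI, 413 kept their sign, and the 7 that did not belong to Hmgcs1, Nsdhl, Ebp, Mylip and Scarb1, all close to 0. Over these alternatives Pltp ran from 4.64 to 6.21, Plin2 from 1.97 to 2.08, Srebf2 from 0.79 to 0.93, Scap from −0.67 to −0.49, Insig2 from −0.58 to −0.50 and Abca7 from −1.04 to −0.66. TMM scaling shifted the median of all genes by 0.26 and leaving mitochondrial and ribosomal protein genes out of the totals by 0.15, so values were read relative to it. With equal weight per cell, 1 member (Abca7) was lower. With at least 50 CPM, 1 of 10 members (Plin2) was higher, beside 7.85% of all genes. With no minimum 4 of 35 were (Sqle, Cd36, Pltp and Plin2), beside 16.4% of all genes. The sterol sensing median was 0.26 when mitochondrial and ribosomal protein genes left the totals, 0.26 without the 10 most abundant genes, −0.52 at 50 CPM (1 member) and 0.20 with no minimum; the members that passed differ between these settings. On those same totals, the summed WT and IRF8KO-labelled levels were 305.3 and 314.1 CPM for synthesis, 160.9 and 140.1 for sterol sensing, 958.2 and 922.9 for uptake, 554.8 and 664.9 for LXR and efflux, and 340.2 and 408.9 for storage and movement. The order of the synthesis sums thus turned with the total used. No paired analysis was possible because each group is 1 library. Depth limits the 13 members under 10 CPM most.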

Other observations

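A small set of cells labelled IRF8KO with under 1% of UMIs in Apoe was split off after that range was seen (36 cells, 123414 UMIs, with 31 cells near the cut on either side of it). Sall1, a microglia transcription factor, had 275.5 CPM in them and 1.06 CPM in the other cells used, and P2ry12, a microglial purine receptor, had 2398 and 613 CPM. Abca1 was at 146 CPM (86.4 to 230.5) from 18 UMIs, against 360 CPM in the other cells. Members on the other side included Lpl at 138 CPM (80.2 to 221) against 23.6 CPM and Stard3 at 170.2 CPM (105 to 260.1) against 84.1 CPM. Mylip at 535 CPM (414 to 680.4) against 363 CPM and Lrp1 at 486 CPM (371 to 626) against 356 CPM were others. Scarb1, Cyp51 and Nsdhl, with 7, 6 and 5 UMIs in these cells, had 56.7, 48.6 and 40.5 CPM against 19.6, 15.4 and 8.48 CPM. The synthesis enzymes did not move together, with Ebp at 89.1 against 87.9 CPM and Msmo1 at 16.2 against 37.0 CPM. Acat2, Mvk, Fdps, Fdft1, Sqle and Hsd17b7 had 0 UMIs, and were at or under 8.75 CPM in the other cells. The synthesis sum was 332 CPM (238 to 451) against 260 CPM, so it was not separated. Plin2 stood at 64.8 CPM (28.0 to 128) against 98.6 CPM, and 3 Pltp UMIs gave 24.3 CPM against 30.9 CPM, so neither Plin2 nor Pltp was separated at this depth. Acaca had 275.5 CPM (191 to 385) against 206 CPM in these cells, which hold 2893 CPM of Apoe.

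Interferon genes took 1% or more of UMIs in 45 cells labelled IRF8KO, and in 1 WT cell, with 28 IRF8KO-labelled cells near that cut on either side. Lrp1 had 172 CPM (112 to 252) in the 45 cells and 358 CPM in the rest of that library. The uptake genes summed to 502 CPM (396 to 629) against 767 CPM, and the synthesis enzymes to 198 CPM (134 to 283) against 261 CPM. Ch25h had 212 CPM against 89.6 CPM.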
